A study of Mus musculus with 14 samples.

Results

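Genes of DNA replication and mitosis were followed in primitive erythroid precursors of the mouse yolk sac. A set of 43 genes was chosen by name, 21 for replication and 22 for mitosis, and each was read on its brightest probe set, meaning the one whose mean over 14 arrays was highest. Of these, 41 were measured among 12393 genes, 20 for replication and 21 for mitosis. Gins2, a subunit of the replicative helicase's GINS complex, and Ccnb1, a mitotic cyclin, had no probe set of their own here.

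Samples were E9.5 yolk sac erythroid cells of mice labelled FVB/N, taken by laser capture from frozen sections of genotyped embryos. There were 8 wild-type samples, 3 labelled KLF1-/- and 3 labelled KLF1-/- KLF2-/-, each pooled from 2 to 4 yolk sacs of 2 litters, on 1 Affymetrix array each. KLF1 and KLF2 are Krüppel-like transcription factors, and KLF1 is a main activator of red cell genes. The design asks which genes of embryonic red cells need KLF1 and which need the pair. Every value is the deposited log2 expression level, so a difference of 1 is a doubling of signal. Levels of different genes are not compared, since probe sets differ in brightness.

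Replication and mitosis are run by genes that peak at different times of the cell cycle. E2F factors drive genes of the G1/S transition, among them the MCM helicase subunits and the enzymes that supply deoxynucleotides. Cyclin, kinase and spindle genes peak later, at G2/M, and many are controlled through CHR elements and CCAAT boxes. Primitive erythroid precursors go on dividing in the circulation while they fill with haemoglobin, and they leave the cycle as they mature. In captured tissue such as this, fewer dividing cells and less RNA per cell cannot be told apart.

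Promoters of 4 genes that the results below turn on are printed, 2 of replication and 2 of mitosis, to show which of these letters they hold. Each is the 250 bases before the gene start, from RefSeq on GRCm38.p6, 5′ to 3′ on the gene's strand. Capitals mark E2F letters (TTTCCCGC or TTTGGCGC), CHR letters (TTTGAA or TTCGAA) and CCAAT, read on either strand.
Mcm3 (chr1:20820313-20820562, minus strand): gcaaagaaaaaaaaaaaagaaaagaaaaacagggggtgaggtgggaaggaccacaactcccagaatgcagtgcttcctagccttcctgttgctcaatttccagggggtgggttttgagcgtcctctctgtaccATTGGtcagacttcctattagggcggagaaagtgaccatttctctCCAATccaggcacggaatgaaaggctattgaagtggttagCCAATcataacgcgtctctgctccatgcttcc
Mcm6 (chr1:128359706-128359955, minus strand): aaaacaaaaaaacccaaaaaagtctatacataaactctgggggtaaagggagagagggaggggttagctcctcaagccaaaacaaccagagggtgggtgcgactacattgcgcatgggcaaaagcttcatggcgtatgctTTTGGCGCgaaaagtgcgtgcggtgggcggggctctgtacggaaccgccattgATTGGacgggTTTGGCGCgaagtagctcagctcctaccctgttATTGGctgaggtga
Ccnb2 (chr9:70421555-70421804, minus strand): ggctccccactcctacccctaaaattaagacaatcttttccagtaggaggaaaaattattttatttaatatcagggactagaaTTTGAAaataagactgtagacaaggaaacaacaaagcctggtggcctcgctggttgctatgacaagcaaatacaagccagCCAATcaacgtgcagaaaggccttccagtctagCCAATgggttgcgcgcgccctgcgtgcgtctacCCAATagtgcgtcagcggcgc
Cdc20 (chr4:118437344-118437593, minus strand): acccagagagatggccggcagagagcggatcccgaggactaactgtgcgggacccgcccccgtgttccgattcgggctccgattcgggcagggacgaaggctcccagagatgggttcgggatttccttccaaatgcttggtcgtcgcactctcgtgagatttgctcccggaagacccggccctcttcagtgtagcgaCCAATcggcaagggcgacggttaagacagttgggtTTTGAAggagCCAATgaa

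The Mcm6 window holds E2F letters at both -110 to -103 and -47 to -40, counted from the gene start. Mcm3 holds CCAAT at 3 places and neither E2F nor CHR letters. In Ccnb2 the CHR letters lie at -167 to -162 and 3 CCAAT matches follow nearer the start. Cdc20 has its CHR letters at -18 to -13, between 2 CCAAT matches.

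Of the 43 genes, 35 had such a window and 4 of these had 2. E2F letters stood before 5 of 17 replication genes (Cdc6, Mcm5, Mcm6, Mcm7 and Pola1) and 0 of 18 mitosis genes, against 1.51% of all 27025 genes with a window. CHR letters stood before 3 of 17 replication genes and 9 of 18 mitosis genes, against 19.6% of all genes. Those 9 were Bub1b, Ccnb2, Cdc20, Cdk1, Kif11, Mki67, Prc1, Top2a and Ube2c, and all 9 also held the CCAAT box. That box stood before 12 of 17 and 15 of 18, against 37.5% of all genes. The Myc E-box CACGTG stood before 2 of 17 and 0 of 18, against 6.86%. CCNCNCCC, a form of the letters that Krüppel-like factors read, stood before 12 of 17 and 10 of 18, against 48.5%. A match is a run of letters and not a measured site.

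**Figure D1:**
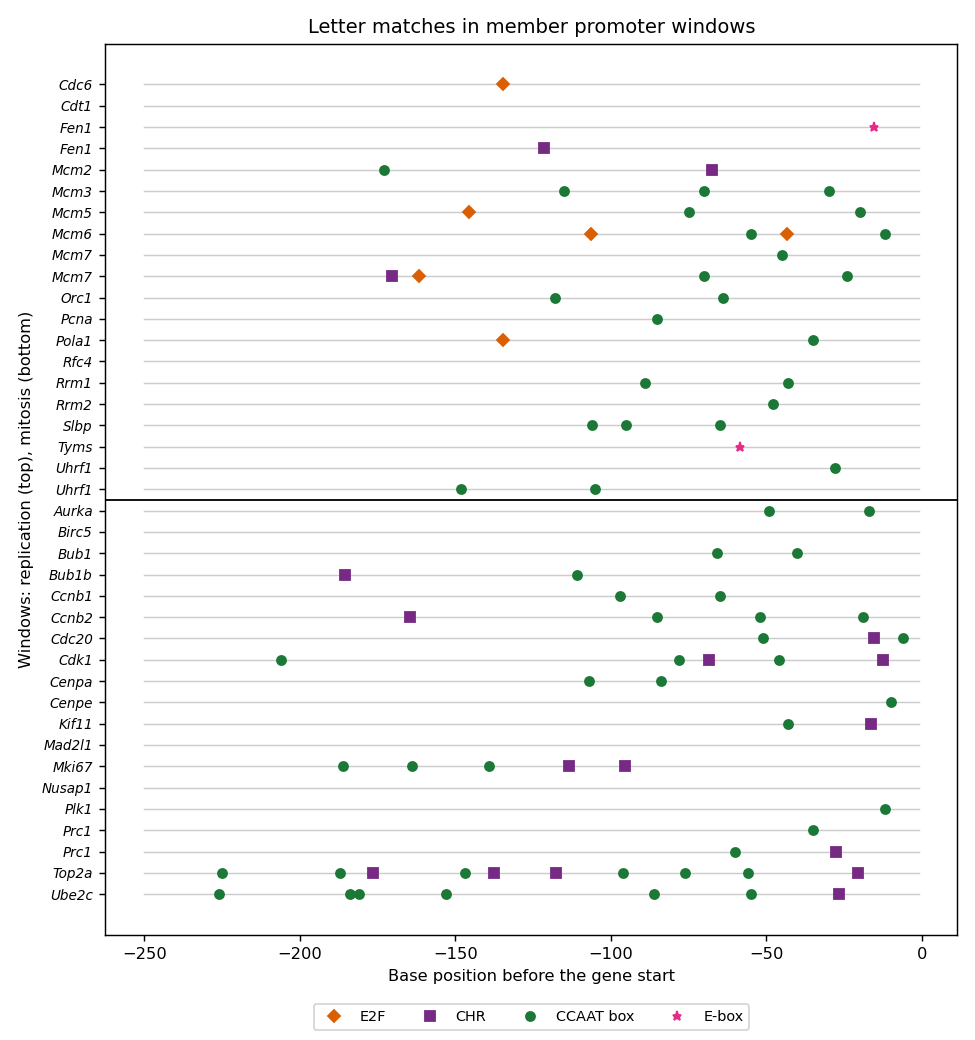
Position of E2F (diamonds), CHR (squares), CCAAT (circles) and E-box (stars) letters in the 250 bases before the gene start, for each promoter window of the replication genes (top) and mitosis genes (bottom); the x axis counts bases before the start, and a gene with 2 windows has 2 lines. E2F letters appear in windows of 5 replication genes and 0 mitosis genes, and CHR letters in windows of 3 and 9.

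Klf1, the gene removed in both mutants, had its 6 mutant arrays below all 8 wild-type arrays. Wild-type values ran from 10.05 through a median of 10.48 to 11.82, KLF1-/- read 9.53, 9.79 and 9.03, and the arrays labelled KLF1-/- KLF2-/- read 9.29, 9.59 and 8.56. In limma the differences were -1.22 and -1.52, with adjusted p = 0.9998 and 0.317. Klf2 was not lower on the arrays labelled KLF1-/- KLF2-/-: they read 6.72, 7.003 and 6.36, against 5.90 to 6.59 in wild type. The sources used here do not give where either probe set lies relative to the deletion, so Klf2 leaves the second label unchecked. Markers of red cells were bright on all arrays, the median of 8 measured erythroid markers running from 10.40 to 12.17. Markers of visceral endoderm were bright too, the median of 9 running from 10.49 to 12.65, and that of 10 mesenchyme markers ran from 8.34 to 9.82.

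No replication or mitosis gene passed the test on loss of KLF1, and most estimates lay slightly above wild type. In KLF1-/- against wild type, 35 of 41 genes had a difference above 0, with a median of 0.14 and a range from -0.21 to 1.02. Limma called 0 of 41 at an adjusted p under 0.05, where 0.0403% of all genes were called. At an unadjusted p under 0.05 the count was also 0 of 41, against 2.03% of all genes. No member's KLF1-/- arrays stood clear of all 8 wild-type arrays, which was the case for 0.573% of all genes. Over all genes 52.1% of differences lay above 0 with a median of 0.0070, and over the brighter ones, those above the median mean level, 61.4% did with a median of 0.05. The standard error of a member's difference had a median of 0.29, so intervals were wide against these medians.

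The same held for arrays labelled KLF1-/- KLF2-/-. There 35 of 41 genes lay above 0, with a median of 0.13 and a range from -0.11 to 0.86. Limma called 0 of 41 (background 0.0646%), 0 of 41 had an unadjusted p under 0.05 (background 2.32%), and 0 of 41 stood clear of wild type (background 0.75%). Over all genes 52.1% lay above 0, and 58.2% of the brighter ones. Both mutant comparisons use the same 8 wild-type arrays, so their likeness is no second finding.

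Between the mutant genotypes 22 of 41 genes were above 0 in KLF1-/- KLF2-/- minus KLF1-/-, with a median of 0.0090 and a range from -0.40 to 0.28. Here too limma called 0 of 41 (background 0.00807%) and 0 of 41 had an unadjusted p under 0.05 (background 0.597%). Arrays of the mutant genotypes overlapped for all 41 genes, while 3.25% of all genes did not overlap. The mutant genotypes also belong to different runs of title numbers, described below. Genotype and run cannot be told apart in this direct comparison.

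**Figure D2:**
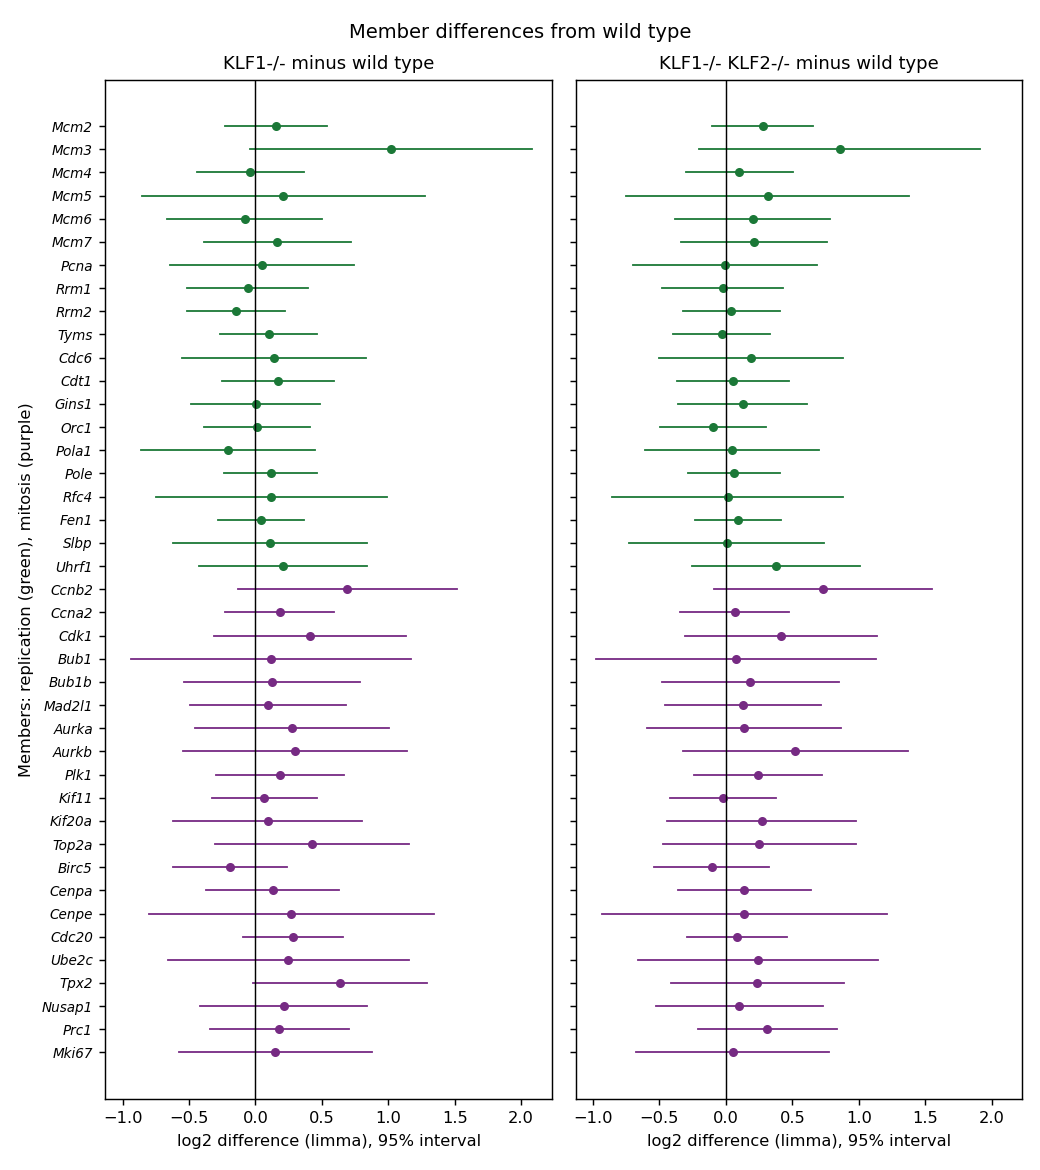
Difference in log2 expression from wild type for each of the 41 genes, in KLF1-/- (left) and in arrays labelled KLF1-/- KLF2-/- (right), n = 3 against 8; points are limma estimates, bars their 95% intervals, green replication and purple mitosis. Every interval spans 0, and Mcm3 has the highest estimate in both panels, at 1.02 and 0.86.

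The MCM genes encode the 6 subunits of the replicative helicase that is loaded at origins in G1. Mcm3 had the largest differences of all members. Its wild-type arrays ran from 7.04 through a median of 7.89 to 8.66, KLF1-/- read 8.80, 9.84 and 8.18, and the arrays labelled KLF1-/- KLF2-/- read 8.999, 10.13 and 7.20. Replicates 5 and 6 of KLF1-/-, and 13 and 14 of the other mutant, lay above all wild-type arrays, but replicates 8 and 15 lay among them. The differences were 1.02 ± 0.50 and 0.86 ± 0.50 (SE), with 95% intervals from -0.04 to 2.08 and from -0.20 to 1.91 and adjusted p = 0.9998 and 0.9999 in limma. Leaving out one array at a time moved Mcm3 from 0.57 to 1.40 and from 0.18 to 1.64. The gene's other 4 probe sets read from -0.28 to 0.15 in KLF1-/- and from -0.39 to 0.13 in the arrays labelled KLF1-/- KLF2-/-, so the difference was seen on the brightest probe set alone.

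Mcm2 was more even. The wild-type arrays ran from 10.50 through a median of 10.95 to 11.21, KLF1-/- read 10.88, 11.23 and 10.97, and the arrays labelled KLF1-/- KLF2-/- read 11.17, 11.54 and 10.74. The groups overlapped, with differences of 0.15 ± 0.18 and 0.28 ± 0.18 (SE). Its second probe set gave 0.46 and 0.64.

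Mcm6, whose promoter carries the pair of E2F matches, read 10.26, 11.57 and 11.13 in KLF1-/- and 11.34, 11.58 and 10.90 in the arrays labelled KLF1-/- KLF2-/-. Among wild-type arrays it ran from 10.51 through 11.07 to 11.63. KLF1-/- replicate 5 was the lowest of the 14 arrays and replicate 6 was near the top, so the group spanned nearly the whole wild-type range. The difference between mutants was 0.28 ± 0.33 (SE), and the 2 probe sets disagreed in KLF1-/-, at -0.08 and 0.64.

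Mcm5 had the second widest range among replication genes, 2.24 over the 14 arrays. Wild type alone ran from 5.43 through 6.62 to 7.59, while KLF1-/- read 6.09, 7.48 and 6.48 and the arrays labelled KLF1-/- KLF2-/- read 6.44, 7.68 and 6.25. The mutants thus lay almost wholly inside the wild-type range, with differences of 0.21 ± 0.50 and 0.31 ± 0.50 (SE). Mcm4 and Mcm7 differed by -0.04 and 0.16 in KLF1-/- and by 0.10 and 0.21 in the arrays labelled KLF1-/- KLF2-/-.

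Cdt1, which loads the MCM helicase together with Cdc6 and the origin recognition complex, read 11.18, 11.70 and 11.22 in KLF1-/-. Its wild-type arrays ran from 10.70 through 11.31 to 11.41, and those labelled KLF1-/- KLF2-/- read 11.28, 11.62 and 10.85. One array of each mutant lay above wild type, and the differences were 0.17 ± 0.20 and 0.05 ± 0.20 (SE). Cdc6 differed by 0.14 and 0.19, the origin recognition gene Orc1 by 0.0093 and -0.10, and the GINS subunit gene Gins1 by 0.0015 and 0.13.

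Pola1, the catalytic subunit of DNA polymerase alpha that starts new strands, had the lowest difference of all members in KLF1-/-. It read 7.11, 8.23 and 7.22 there, 7.77, 8.17 and 7.38 in the arrays labelled KLF1-/- KLF2-/-, and from 7.07 through 7.78 to 8.34 in wild type. No mutant array left the wild-type range, and the difference in KLF1-/- was -0.21 ± 0.31 (SE). Of other genes at the replication fork, Pole, of the leading-strand polymerase, differed by 0.11 and 0.06, Rfc4, of the clamp loader, by 0.12 and 0.01, and the sliding clamp gene Pcna by 0.05 and -0.0079.

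Fen1, the nuclease that trims Okazaki fragments, was among the most even members. Its wild-type range went from 12.38 through 12.93 to 13.05, KLF1-/- read 12.92, 12.68 and 13.01, and the arrays labelled KLF1-/- KLF2-/- read 12.82, 12.84 and 13.10. Its differences were 0.04 ± 0.15 and 0.09 ± 0.15 (SE). Fen1 also ran against most other members across arrays: KLF1-/- replicate 6, where most members were high, was low for Fen1, and replicate 15 was its highest array.

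The supply of deoxynucleotides was read from 3 genes. Rrm2, the regulated subunit of ribonucleotide reductase, read 11.74, 11.87 and 12.06 in KLF1-/-, 11.82, 12.34 and 12.06 where labelled KLF1-/- KLF2-/-, and from 11.73 through 11.997 to 12.60 in wild type. All 6 mutant arrays lay inside the wild-type range, and the mutants differed from each other by 0.19 ± 0.21 (SE). Rrm1, the large subunit, differed by -0.06 and -0.02 from wild type.

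Tyms, which makes thymidylate, was dim, its brightest probe set lying between 4.61 and 5.30. KLF1-/- read 5.30, 4.66 and 5.17, the arrays labelled KLF1-/- KLF2-/- read 4.78, 4.79 and 5.16, and wild type ran from 4.61 through 5.01 to 5.22. Like Fen1, it was low on KLF1-/- replicate 6. Its level lay below the median of all genes (6.99), as did those of 3 other members, and no filter on dim genes was applied.

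Uhrf1, which recruits the maintenance DNA methyltransferase to newly made DNA, read 8.69, 9.98 and 8.84 in KLF1-/- and 9.37, 9.71 and 8.96 in the arrays labelled KLF1-/- KLF2-/-. In wild type it ran from 8.49 through 8.96 to 9.42. Replicates 6 and 14 alone exceeded wild type, and the differences were 0.21 ± 0.29 and 0.38 ± 0.29 (SE). Slbp, which binds the stem-loop of histone messages, differed by 0.11 and 0.0059.

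**Figure D3:**
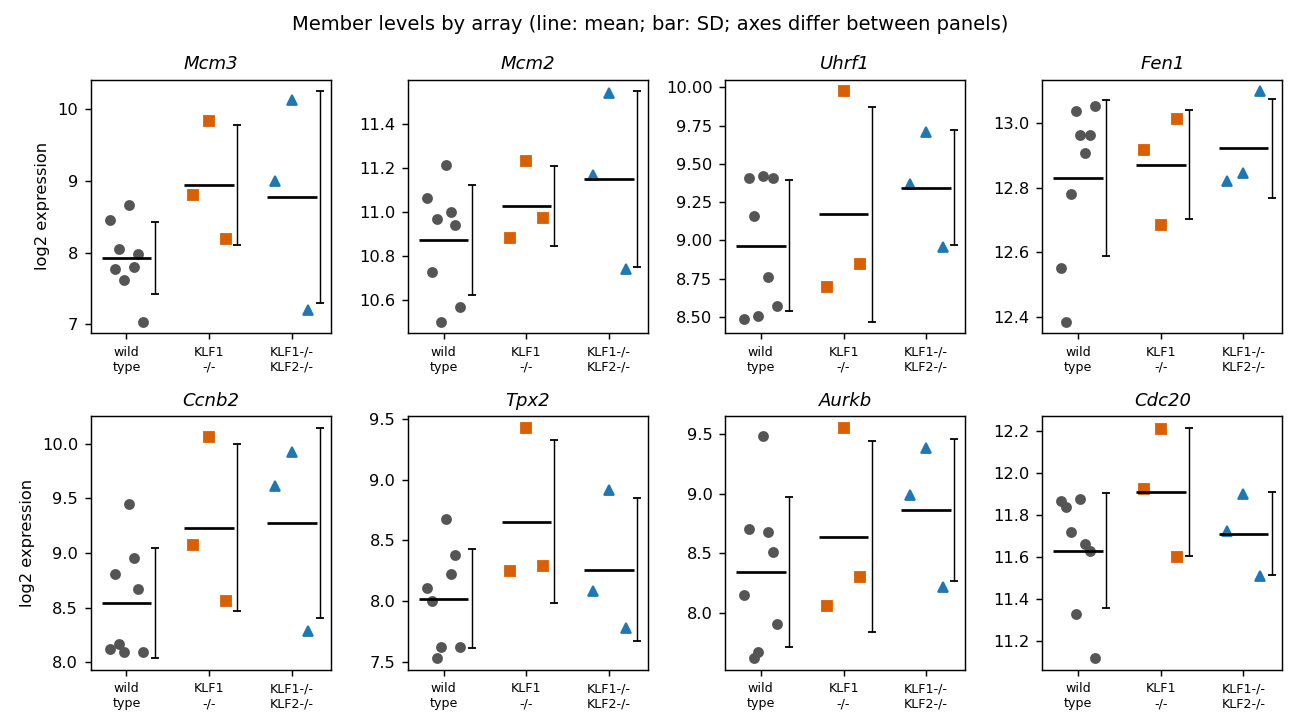
Log2 expression of 4 replication genes (top) and 4 mitosis genes (bottom) on each array, by genotype, with 8 wild-type arrays and 3 of each mutant; lines are means, bars beside the points are 1 SD, and each panel has its own axis. In Mcm3 the KLF1-/- arrays read 8.80, 9.84 and 8.18 against at most 8.66 in wild type, and in all 8 genes the genotypes overlap.

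Among mitosis genes the largest difference was in Ccnb2, a B-type cyclin that activates Cdk1. Wild-type arrays spanned 8.09 through a median of 8.41 to 9.44, KLF1-/- read 9.07, 10.06 and 8.56, and the arrays labelled KLF1-/- KLF2-/- read 9.61, 9.93 and 8.29. Replicates 6, 13 and 14 exceeded all wild-type arrays, while 5, 8 and 15 did not. The differences were 0.69 ± 0.39 and 0.73 ± 0.39 (SE), with 95% intervals from -0.13 to 1.51 and from -0.09 to 1.55 and adjusted p = 0.9998 and 0.9999 in limma. Leaving out one array at a time moved them from 0.27 to 1.03 and from 0.41 to 1.23.

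Its kinase partner Cdk1 differed by 0.41 ± 0.34 (SE) in both comparisons. Ccna2, cyclin A2, was among the narrowest mitosis genes, at 9.78, 10.14 and 9.67 in KLF1-/-, 9.72, 10.12 and 9.40 where labelled KLF1-/- KLF2-/-, and from 9.17 through 9.67 to 10.02 in wild type. The differences of Ccna2 were 0.18 ± 0.19 and 0.07 ± 0.19 (SE), within the spread of the arrays.

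Tpx2, which activates Aurora A on the spindle, read 8.25, 9.43 and 8.29 in KLF1-/-. Its wild-type arrays ran from 7.53 through 8.05 to 8.68 and the arrays labelled KLF1-/- KLF2-/- read 8.08, 8.92 and 7.78. The KLF1-/- difference was 0.64 ± 0.31 (SE, adjusted p = 0.9998 in limma), and the mutants differed from each other by -0.40 ± 0.37 (SE). The second Tpx2 probe set gave 0.25. Without KLF1-/- replicate 6 the difference fell to 0.25.

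Aurkb, the kinase of the chromosomal passenger complex, read 8.06, 9.55 and 8.30 in KLF1-/- and 8.99, 9.38 and 8.22 in the arrays labelled KLF1-/- KLF2-/-. Wild-type values ran from 7.62 through 8.33 to 9.48. One mutant array, KLF1-/- replicate 6, lay above wild type, and the differences were 0.30 ± 0.40 and 0.52 ± 0.40 (SE). Aurka differed by 0.28 and 0.14, Plk1 (polo-like kinase) by 0.19 and 0.24, and Birc5 (survivin, of the passenger complex) by -0.19 and -0.11. Birc5 was the one mitosis gene below 0 in KLF1-/-.

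Prc1, which bundles microtubules of the central spindle, read 8.67, 9.53 and 8.76 in KLF1-/- and 8.95, 9.61 and 8.80 in the arrays labelled KLF1-/- KLF2-/-. The wild-type arrays ran from 8.31 through 8.94 to 9.20, so replicates 6 and 14 alone exceeded it. The differences were 0.18 ± 0.25 and 0.31 ± 0.25 (SE). Kif20a, a motor of cytokinesis, differed by 0.09 and 0.27, and Nusap1, a spindle-associated protein, by 0.21 and 0.10.

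Kif11, the motor that separates spindle poles, had the narrowest range of the mitosis genes, 0.89 over the 14 arrays. It read 8.26, 8.61 and 8.39 in KLF1-/-, 8.34, 8.58 and 8.09 where labelled KLF1-/- KLF2-/-, and from 7.97 through 8.29 to 8.86 in wild type. Every mutant array of Kif11 lay inside the wild-type range. The differences were 0.07 ± 0.19 and -0.02 ± 0.19 (SE).

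Cenpe, the kinetochore motor, varied far more, by 2.27 over the 14 arrays. Among wild-type arrays it ran from 6.82 through 8.15 to 8.81, KLF1-/- read 7.66, 9.05 and 7.92, and the arrays labelled KLF1-/- KLF2-/- read 8.04, 9.10 and 7.11. Replicates 6 and 14 exceeded wild type and replicate 15 lay near its floor. The differences were 0.27 ± 0.50 and 0.14 ± 0.50 (SE). Cenpa, the centromeric histone, differed by 0.13 and 0.14.

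Cdc20, an activator of the anaphase-promoting complex, read 11.93, 12.21 and 11.60 in KLF1-/- and 11.72, 11.90 and 11.51 in the arrays labelled KLF1-/- KLF2-/-. Its wild-type range went from 11.12 through 11.69 to 11.88. The differences were 0.28 ± 0.18 and 0.08 ± 0.18 (SE), and the groups overlapped. Its other probe sets gave 0.59 and 0.35 in KLF1-/-, and 0.32 and 0.23 in the arrays labelled KLF1-/- KLF2-/-. Ube2c, the ubiquitin-conjugating enzyme of the same complex, had the widest range of the mitosis genes, 2.31. It read 9.15, 9.47 and 8.37 in KLF1-/-, 9.21, 9.45 and 8.33 where labelled KLF1-/- KLF2-/-, and from 7.38 through 8.60 to 9.68 in wild type. No mutant array of Ube2c left the wild-type range.

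Among spindle checkpoint genes Bub1 differed by 0.12 and 0.08, Bub1b by 0.12 and 0.18, and Mad2l1 by 0.10 and 0.13. Top2a, which untangles sister chromatids, differed by 0.43 and 0.25, and the proliferation marker Mki67 by 0.15 and 0.05. The 9 mitosis genes with CHR letters differed by 0.07 to 0.69 in KLF1-/-, and the 5 replication genes with E2F letters by -0.21 to 0.21. In the arrays labelled KLF1-/- KLF2-/- these ranges were -0.02 to 0.73 and 0.05 to 0.31. Measured mitosis genes with a window but no CHR letters differed by -0.19 to 0.28 in KLF1-/- and -0.11 to 0.24 in the other mutant. Measured replication genes with a window but no E2F letters differed by -0.15 to 1.02 and by -0.10 to 0.86. No test was made of these ranges.

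Seen apart, replication genes had a median difference of 0.10 in KLF1-/- (15 of 20 above 0) and mitosis genes 0.19 (20 of 21 above 0). In the arrays labelled KLF1-/- KLF2-/- the medians were 0.08 (16 of 20) and 0.14 (19 of 21), and between the mutants 0.05 (12 of 20) and -0.0036 (10 of 21). One array in each mutant set the sign of its medians against wild type. Without KLF1-/- replicate 6 the medians in KLF1-/- were -0.12 for replication and -0.03 for mitosis. Without replicate 14 those of the arrays labelled KLF1-/- KLF2-/- were -0.09 and -0.07, and without replicate 15 they were 0.35 and 0.45. After quantile normalization between arrays the medians in KLF1-/- were 0.06 and 0.12, and in the other mutant 0.05 and 0.11.

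Most members were high or low together from array to array inside each genotype. On each array, the members above their own 14-array median were counted. The 21 mitosis genes were all above it on wild-type replicate 9, KLF1-/- replicate 6 and replicate 14 of KLF1-/- KLF2-/-, and none was on wild-type replicates 4 and 12 or on replicate 15. For the 20 replication genes these counts were 19, 17 and 18 on the first 3 arrays and 3 on each of the other 3. The remaining arrays lay between, with 3 to 19 mitosis genes and 4 to 14 replication genes above. Each genotype thus held both high and low arrays, and KLF1-/- replicates 5 and 8 were low, with 7 and 4 mitosis genes above.

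Most members had their highest value on 2 arrays, 15 on KLF1-/- replicate 6 and 13 on replicate 14, and their lowest on wild-type replicates 12 (15 members) and 3 (10 members). The median SD within a genotype was 0.48 for the 41 members, 0.39 for replication and 0.51 for mitosis, against 0.27 for all genes and 0.34 for the brighter ones. All 21 mitosis genes had an SD above the median of all genes, as did 4380 of the 6196 brighter genes.

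**Figure D4:**
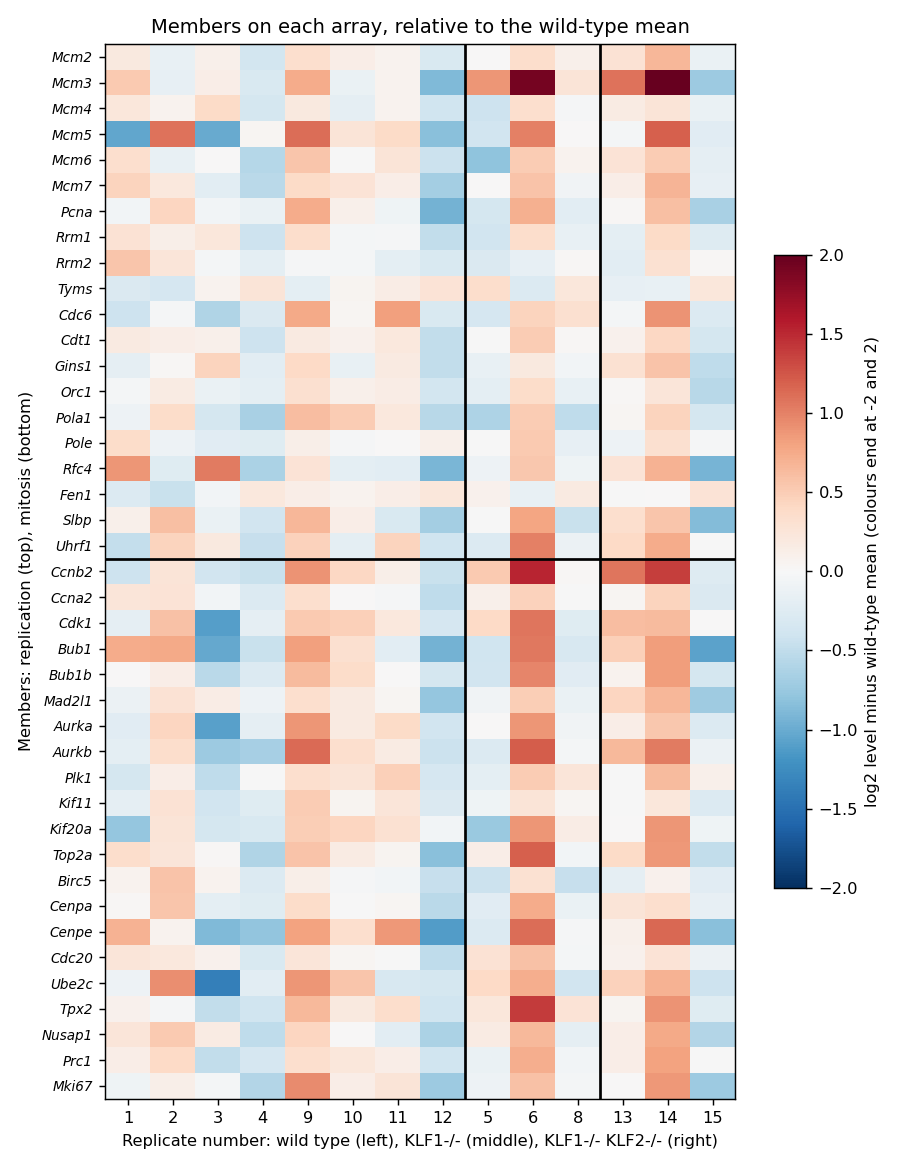
Log2 level of each of the 41 genes on each of the 14 arrays minus that gene's wild-type mean; columns are replicates, wild type at left, KLF1-/- in the middle and KLF1-/- KLF2-/- at right, rows are replication genes above the line and mitosis genes below, and colours end at -2 and 2. Replicates 9, 6 and 14, one of each genotype, are red for most genes, and replicates 4, 12 and 15 are blue.

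The spread of a whole array moved with these counts, though loosely away from their ends. The interquartile range of an array's log2 values ran from 2.31 to 3.12, and it was 2.78, 3.12 and 2.84 on replicates 9, 6 and 14 and 2.42, 2.31 and 2.39 on replicates 4, 12 and 15. Of the brighter genes as a whole, 57.4%, 73.6% and 69.7% were above their own median on the first 3 arrays and 29.0%, 23.6% and 34.4% on the last 3. With the interquartile range as a covariate, chosen after the data were seen, the medians in KLF1-/- were -0.03 for replication and 0.04 for mitosis. Quantile normalization, which gives all arrays one distribution, left a smaller spread: the median SD was 0.33 for the members and 0.23 for all genes, with 28 of 41 members, 15 of 21 mitosis genes and 4290 of 6196 brighter genes above the latter. The brighter genes then had a median SD of 0.29. The median mitosis deviation from the wild-type mean was 0.53, 0.74 and 0.76 on replicates 9, 6 and 14 before this normalization. After it, the mitosis deviation was 0.43, 0.33 and 0.51 there, and -0.19, -0.21 and -0.14 on replicates 4, 12 and 15. For replication genes the deviation on replicates 9, 6 and 14 was 0.36, 0.50 and 0.53 before and 0.23, 0.15 and 0.27 after.

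Other array measures also differed between these arrays. Gapdh control probes at the 3′ end exceeded those at the 5′ end, a difference that grows as RNA is degraded or shortened in amplification. It was 4.66, 5.06 and 4.46 on replicates 9, 6 and 14 and 4.16, 3.90 and 3.94 on replicates 4, 12 and 15. Not every other array followed this split. Wild-type replicate 2, with 19 mitosis genes above their median, was at 4.22, and wild-type replicate 1, with 9, was highest at 5.28. The same excess in Actb control probes did not split replicates 9, 6 and 14 from 4, 12 and 15. There it was 4.33, 5.07 and 4.67 against 4.13, 3.74 and 5.25. With the Gapdh excess as a covariate the medians were -0.01 for replication and 0.09 for mitosis in KLF1-/-, and 0.06 and 0.11 in the arrays labelled KLF1-/- KLF2-/-. The endothelial marker median was 7.42, 7.89 and 7.73 on the first 3 arrays and 6.73, 6.92 and 6.74 on the last 3. Erythroid markers read 12.17, 10.83 and 11.67 against 10.85, 10.95 and 10.44, and visceral endoderm markers 10.73, 12.10 and 11.40 against 11.72, 10.49 and 11.25. Macrophage markers were not higher on the first 3, at 6.71, 6.51 and 7.26 against 6.76, 6.93 and 7.36. Across genotypes, the endothelial median ran from 6.73 to 7.63 in wild type, 7.14 to 7.89 in KLF1-/- and 6.74 to 7.74 in KLF1-/- KLF2-/-. The median of 9 megakaryocyte markers ran from 6.80 to 7.10, 6.78 to 7.23 and 7.26 to 7.35 in the same order, so the arrays labelled KLF1-/- KLF2-/- lay above all others. Macrophage medians there ran from 7.13 to 7.36, against 6.48 to 7.41 in wild type and 6.51 to 7.07 in KLF1-/-. Mesenchyme medians there ran from 9.40 to 9.82, against 8.34 to 9.71 and 8.55 to 9.64. The part of array spread, RNA quality or cell mixture in the members' levels was not tested.

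**Figure D5:**
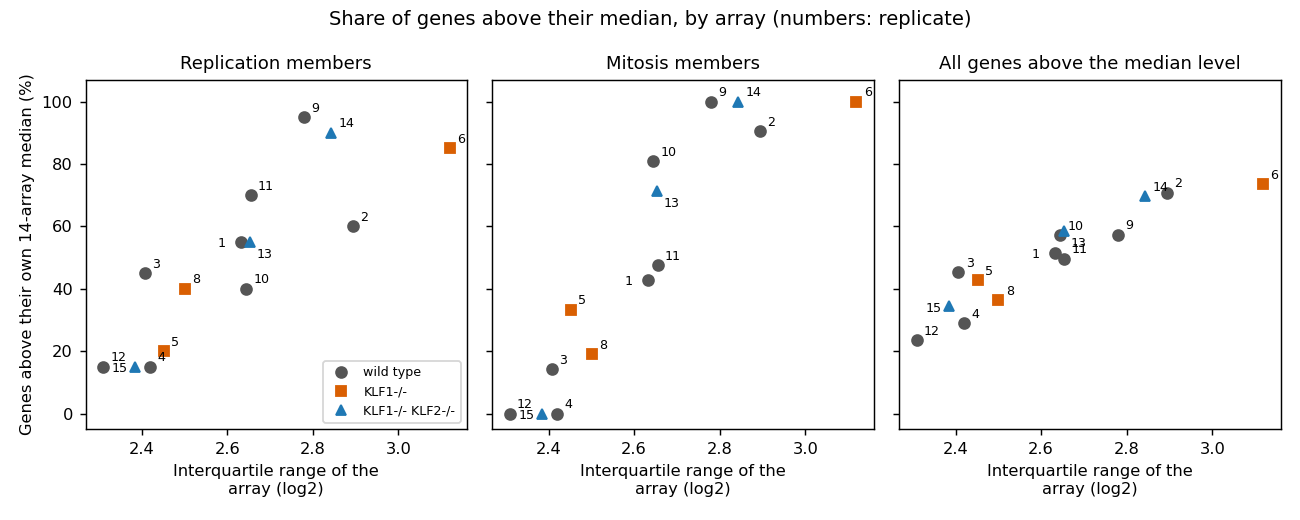
Percentage of genes above their own 14-array median on each array (y axis) against the interquartile range of that array's log2 values (x axis), for replication members, mitosis members and all genes above the median level; points are arrays, numbered by replicate, with colour and shape for genotype. Mitosis shares run from 0% on replicates 4, 12 and 15 to 100% on replicates 6, 9 and 14, while those of all brighter genes run from 23.6% to 73.6%.

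The titles are numbered in 2 runs, 1 to 8 with 4 wild-type and the KLF1-/- arrays, and 9 to 15 with 4 wild-type and the arrays labelled KLF1-/- KLF2-/-; the labels do not call them batches. Against wild-type arrays of the same run the medians in KLF1-/- were 0.12 for replication and 0.30 for mitosis, and in the arrays labelled KLF1-/- KLF2-/- 0.07 and 0.08. Tpx2 was the one member whose KLF1-/- arrays all lay above the wild-type arrays of their own run, 8.25, 9.43 and 8.29 against 8.11, 8.00, 7.53 and 7.62, where 3.13% of all genes stood clear in that way. In the other mutant 0 of 41 did so, where 4.42% of all genes did. Within wild type, replicates 9 to 12 minus 1 to 4 gave a member median of 0.12, with 24 of 41 above 0 against 5763 of all 12393 genes. Limma called 0 members and 0% of all genes; 2 members had an unadjusted p under 0.05, where 7.49% of all genes did. The member median of 0.12 is close to the ones between mutants and wild type. Split by kind, it was 0.08 for replication (11 of 20 above 0) and 0.30 for mitosis (13 of 21). The mitosis value exceeded the mitosis medians of 0.19 and 0.14 that the mutants gave against all wild-type arrays. With the run as a block, some estimates between the mutants moved by more than the gene's SD within a genotype. Rrm2 went from 0.19 to 0.47 and Fen1 from 0.05 to -0.23, and neither was called.

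Further genes of the same processes were read from lists of 40 and 50 names. Of 35 measured replication genes, 27 lay above 0 in KLF1-/- with a median of 0.09, and of 41 measured mitosis genes 36 did, with a median of 0.13. In the arrays labelled KLF1-/- KLF2-/- the counts were 23 and 32 and the medians 0.05 and 0.11. Over all genes 52.1% lay above 0 in each comparison, and of the brighter genes 61.4% and 58.2%. Limma called 0 of these further genes in either comparison, where 0.0403% and 0.0646% of all genes were called. In KLF1-/- 1 had an unadjusted p under 0.05 and in the other mutant 0 did, where 2.03% and 2.32% of all genes did.

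That gene was Racgap1, of the central spindle, which read 8.35, 8.79 and 7.96 in KLF1-/- against 7.19 through 7.80 to 8.27 in wild type. Its difference was 0.59 ± 0.23 (SE, unadjusted p = 0.0196, adjusted p = 0.9998 in limma). Dlgap5, a spindle protein, differed by 0.26 ± 0.15 there. Asf1b, a histone chaperone, differed by 0.39 ± 0.19 and 0.37 ± 0.19 in the KLF1-/- arrays and those labelled KLF1-/- KLF2-/-, and Cdc45, of the helicase complex, by 0.31 ± 0.18 and 0.24 ± 0.18. Cdc25b, a phosphatase that activates Cdk1, and Kif4, a chromosome motor, differed by 0.65 ± 0.33 and 0.29 ± 0.16 in the arrays labelled KLF1-/- KLF2-/- (all ± SE). Groups overlapped for each of these 6 genes in both comparisons.

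Probe sets of the same gene often parted. Of 22 members with several probe sets, the brightest and next brightest had the same sign in 14 in KLF1-/-, 17 in the arrays labelled KLF1-/- KLF2-/-, and 13 between mutants. The largest gap was in Mcm3, at 0.93 and 0.73 in the first 2 comparisons, and in Mcm6 between the mutants, at 0.38. The brightest probe sets of Mcm4, Mcm6, Rrm2, Fen1 and Cdc20 carry the maker's suffix for probes that may cross-hybridise, so their levels are uncertain to that extent.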

How the data were processed

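The values are log2 expression per probe set as the authors deposited them, and GCOS, RMA, affy and limma are named without versions, per the submitters' processing notes. Per the labels' protocols, 10 to 20 ng of RNA went through 2 cycles of amplification from an oligo(dT) primer, which favours 3′ ends. Differences between weak signals are compressed by RMA, and normalization can mask a shift that most genes share. The deposited arrays did not share one distribution: interquartile ranges ran from 2.31 to 3.12 and medians from 6.55 to 6.66. How far the deposited values had been normalized between arrays was not tested.

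Of 22690 probe sets, 64 were controls; the annotation gave 1 gene for 20380, more than 1 for 691 and no gene for 1555. One mean per genotype was fitted to 12393 genes on 14 arrays with limma 3.58.1 (R 4.3.3; lmFit, eBayes, two-sided), with Benjamini-Hochberg adjustment over all genes and calls at adjusted p under 0.05. No block was used, since the labels do not call the number runs batches. Depth has no meaning for arrays; their number limits precision. The fit was tested on simulated data with independent noise for each gene and array. Such data lack the shared rise and fall of members between arrays, so that feature was not tested.

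Full values are given for the 3 replication and 3 mitosis members with the smallest p in each comparison, the 2 widest and 2 narrowest of each kind, and the 2 other replication and 2 other mitosis genes with the smallest p against wild type. Members and lists were chosen with earlier results of these data known. Python 3.11.15, pandas 2.3.3 and matplotlib 3.10.9 made tables and figures. The alternatives are given under the processing heading. Replicates were pools from 2 litters, and the sources used here do not say whether replicates shared litters. Promoter windows come from RefSeq on GRCm38.p6; 8 members had none there.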

Additional observations from a re-analysis of the deposited data

Results flagged for a closer look

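Mad2l1, a spindle checkpoint gene, was at 10.61 in wild-type replicate 12, against a wild-type median of 11.48. Its gap to the nearest array was 0.602 of the whole wild-type range, above Dixon's 95% critical value of 0.526 for 8 arrays. The test was made on 43 wild-type groups of values, and chance flags about 1 in 20 such groups. Replicate 12 was the lowest array for 15 of the 41 members.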

How the results depend on the processing

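Members called stayed at 0 of 41 in each comparison under every setting except limma's array weights, also when each array was left out in turn. No paired analysis was possible because the groups compared share no replicate numbers. Array weights, which did not converge and ran from 0.172 to 58.7 with KLF1-/- KLF2-/- replicate 13 highest, called 2, 7 and 23 members and 353, 2347 and 6029 genes in KLF1-/-, KLF1-/- KLF2-/- and the comparison between them. In that last comparison they turned Mcm3 to 0.76, Rrm2 to -0.22, Fen1 to -0.18 and Ube2c to 0.78. Among members with full values, those called in KLF1-/- KLF2-/- against wild type kept their sign. They were Mcm3 (1.08), Ccnb2 (0.88), Aurkb (0.48), Uhrf1 (0.41) and Mcm2 (0.24). In KLF1-/- the weights called Pola1, at -0.70, and took Ccnb2 to -0.11, Cdc20 to -0.02 and Ube2c to -0.50. With a stronger prior on the weights (0.256 to 4.05, chosen after the data were seen) 0 members and 24 and 23 genes were called against wild type.

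The count of all genes called, 5, 8 and 1, also moved. It was 3 in KLF1-/- with the number run as a block, with wild-type arrays of the same run, or with only the 2 groups compared. In KLF1-/- KLF2-/- it was 2 with the mean of all probe sets and 15 with the interquartile range as a covariate. Between mutants it was 0 with the run block, the Gapdh covariate, only the 2 groups, the run block after quantile normalization, or without the 2 arrays of widest and narrowest interquartile range, where 1 gene was called in KLF1-/-. Leaving out one array gave 1 to 6, 0 to 8 and 0 to 1. The covariate, the exclusion of 2 arrays and the block after normalization were chosen after the data were seen, and the cause was not tested.

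Over 28 settings, the reported one included, the KLF1-/- median was above 0 in 22 for replication (-0.20 to 0.20) and 24 for mitosis (-0.14 to 0.37), and in KLF1-/- KLF2-/- in 25 (-0.09 to 0.35) and 27 (-0.07 to 0.45). Between mutants it was above 0 in 22 of 27 (-0.18 to 0.28) and 8 of 27 (-0.31 to 0.35). Settings that leave out an array outside the comparison, or change only the standard errors, repeat the reported median. These counts therefore hold copies of one estimate and do not measure agreement. With the stronger prior, the KLF1-/- medians were -0.07 and -0.12. Leaving out one array gave -0.18 to 0.28 for replication and -0.26 to 0.23 for mitosis between mutants. Precision is limited by the 3 arrays of each mutant.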
